A study of Mus musculus with 8 samples.

Results

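mmu-miR-103-3p and mmu-miR-107-3p are near-identical microRNAs (miRNAs) encoded inside the pantothenate kinase (Pank) genes, and they were taken by their names in the array files, which hold 611 mouse miRNAs. Both names were found, as 2 of 611, and neither the 5p arms of the pair nor their host mRNAs were analysed here. The arrays measured RNA of C3H10T1/2 cells, a line of mouse mesenchymal cells that responds to hedgehog proteins and can turn into fat, bone or cartilage cells in culture. The WT group was incubated for 48 h with 750 nM of the wild type N-terminal fragment of human Indian hedgehog (IhhN), and the MT group with 750 nM of the same fragment carrying E95K, a change found in brachydactyly type A1. Both proteins were made in bacteria. The control group is labelled as cells without protein induction, although its label also carries the 750 nM of the other groups. All 3 groups share the cell line, the medium with serum and the 48 h of incubation. No age, genotype or passage of the line is given in the sources used here.

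Each group had 2 RNA samples (n = 2), and each WT sample was hybridized on 2 arrays, so that the WT, MT and control groups had 4, 2 and 2 arrays on 1 slide. Nothing in the labels says that the RNA samples of a group came from separate cultures, so p-values measure the spread between these samples only. The WT arrays filled the upper row of the slide. In the lower row both MT arrays lay on the left and both control arrays on the right. For MT versus control, group and side cannot be told apart. For WT versus control and WT versus MT, group and row of the slide cannot be told apart. Of the 611 mouse miRNAs, 103 were detected on all 8 arrays and 449 on none, and detection differed between arrays, with 104 and 117 on the arrays of WT replicate 1, 106 on that of MT replicate 1 and 143 to 150 on the other 5. Of markers of mesenchymal cells such as miR-21, miR-143, miR-199a and miR-214, 8 of 14 arms were detected on all 8 arrays. Of 25 arms of liver, neuron, muscle, blood, endocrine and epithelial miRNAs, 0 were detected on any array, and of 15 arms of pluripotent-cell miRNAs, miR-290-3p alone was detected, on 1 array.

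An miRNA pairs with target mRNAs mainly through its seed, bases 2 to 8 from its 5′ end, and lowers their output. Pantothenate kinases catalyse the first and rate-controlling step of coenzyme A synthesis, and the miRNAs in their introns are made from the same primary transcripts. miR-103 and miR-107 are known for effects on insulin sensitivity, with caveolin-1 as a target, and for a rise during the formation of fat cells. The mature sequences are shown from RefSeq (GRCm38.p6) because they set how far the array can separate the pair. Capitals mark the seed and the differing base.
miR-103-3p: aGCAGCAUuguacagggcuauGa
miR-107-3p: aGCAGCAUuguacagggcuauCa
Both are 23 bases long and share 22 bases. The substitution from miR-103-3p to miR-107-3p is G22C, counted from the 5′ end, so the seed GCAGCAU is the same. Of the 611 array miRNAs, 476 were matched to a RefSeq mature sequence, and among these 2 carried this seed, the pair itself. The closest other array miRNA, miR-770-5p, differed from miR-103-3p at 10 positions without gaps. A probe for one member thus has the other as its nearest partner among the array miRNAs matched. The probe sequences were not analysed here, and how well they separate the pair was not tested.

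The pair comes from 3 hairpins, which are shown because 2 of them yield the same mature miR-103. A mature miR-103 can thus come from 2 loci and a mature miR-107 from 1. Mir103-1 lies at chr11:35782396-35782481 on the plus strand within Pank3, Mir103-2 at chr2:131288052-131288137 on the plus strand within Pank2, and Mir107 at chr19:34820687-34820773 on the minus strand within Pank1 (GRCm38.p6). Each host gene is on the same strand as its hairpin. The deposited files name an earlier build, mm9, and hold no coordinates for these spots. Capitals mark the mature miRNA.
Mir103-1: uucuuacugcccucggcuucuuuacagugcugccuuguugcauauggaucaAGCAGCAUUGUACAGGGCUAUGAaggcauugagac
Mir103-2: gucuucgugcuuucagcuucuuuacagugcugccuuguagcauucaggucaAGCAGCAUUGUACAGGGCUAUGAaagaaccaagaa
Mir107: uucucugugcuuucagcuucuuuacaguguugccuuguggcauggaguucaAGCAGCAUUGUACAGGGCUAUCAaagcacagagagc
The mature sequence fills bases 52 to 74 of all 3 hairpins. Mir103-1 and Mir103-2 are 86 bases long and differ at 17 positions, all of them outside the mature sequence. Signal at miR-103 therefore cannot be assigned to Pank2 or to Pank3.

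Both miRNAs were well within the measured range on every array. Each had 2 probes of 10 spots, and all spots used were marked as well above background, 77 and 75 for the brighter and dimmer probe of miR-103 and 77 and 78 for those of miR-107 over the 8 arrays. No spot on any array was saturated. The deposited signal, before any scaling between arrays, of the brighter miR-103 probe was 297 and 304 signal units on the 2 arrays of WT replicate 1 and 321 and 257 on those of WT replicate 2. It was 238 and 264 in MT replicates 1 and 2 and 526 and 328 in control replicates 1 and 2. The brighter miR-107 probe gave 297, 277, 287 and 248 on the WT arrays in the same order. It gave 222 and 235 on the MT arrays and 486 and 330 on the control arrays. Control replicate 1 stood above the 7 other arrays at all 4 probes. That array was also the brightest for the miRNAs detected on all arrays, with a 75th percentile of 785 signal units against 432 to 606 on the others. The spots of the brighter probes scattered by 1.32% to 6.39% (CV) for miR-103 and 5.52% to 8.89% for miR-107 on an array, and those of the dimmer probes by 5.60% to 16.5% and 7.02% to 23.7%.

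**Figure D1:**
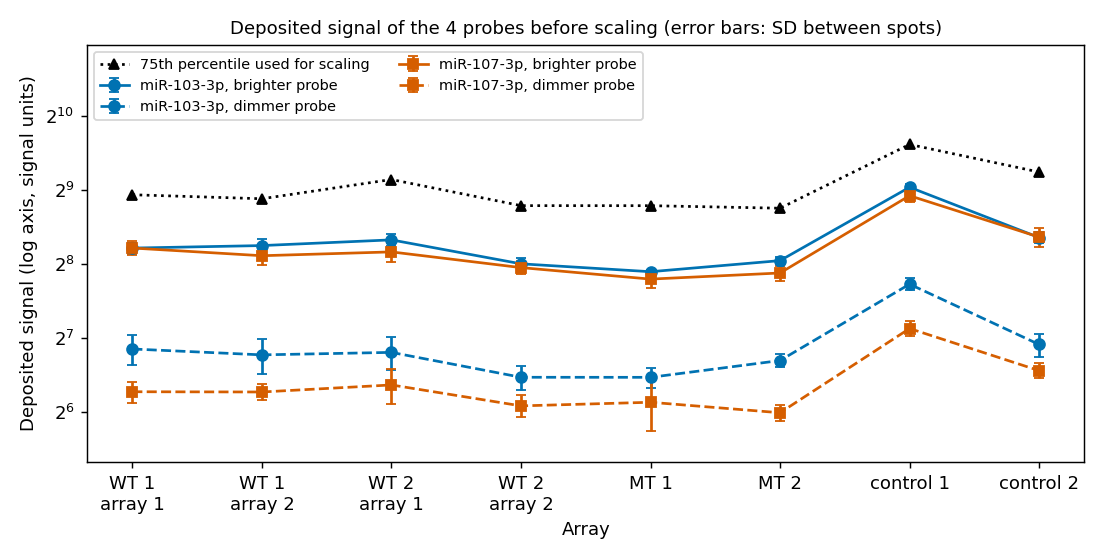
Deposited signal of the 2 probes of miR-103-3p (circles) and the 2 probes of miR-107-3p (squares) on each of the 8 arrays, on a log2 axis in signal units, with the SD between spots as error bars and the 75th percentile used for scaling as triangles. All 4 probes and the percentile peak on the array of control replicate 1, where the brighter probes read 526 and 486 and the percentile 785.

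Since the arrays differed in brightness, each was scaled to the 75th percentile of the 174 mouse probes detected on all arrays, and the brighter probe stood for each miRNA. Scaled in this way, miR-103 read 325 and 298 in WT replicates 1 and 2, 280 and 318 in MT replicates 1 and 2, and 347 and 281 in control replicates 1 and 2. miR-107 read 310 and 277, 261 and 283, and 321 and 282 in the same order. Control replicate 1 was the highest of the 6 samples for both miRNAs and MT replicate 1 the lowest for both. In every pair of groups the samples overlapped, for both miRNAs. On the log2 scale the mean of miR-103 was 8.28 ± 0.09 (SD, n = 2) for WT, 8.22 ± 0.13 for MT and 8.29 ± 0.22 for control cells. That of miR-107 was 8.19 ± 0.12, 8.09 ± 0.08 and 8.23 ± 0.13. For both, the order of the means was control, WT and MT, and no neighbours in that order differed beyond their spread.

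**Figure D2:**
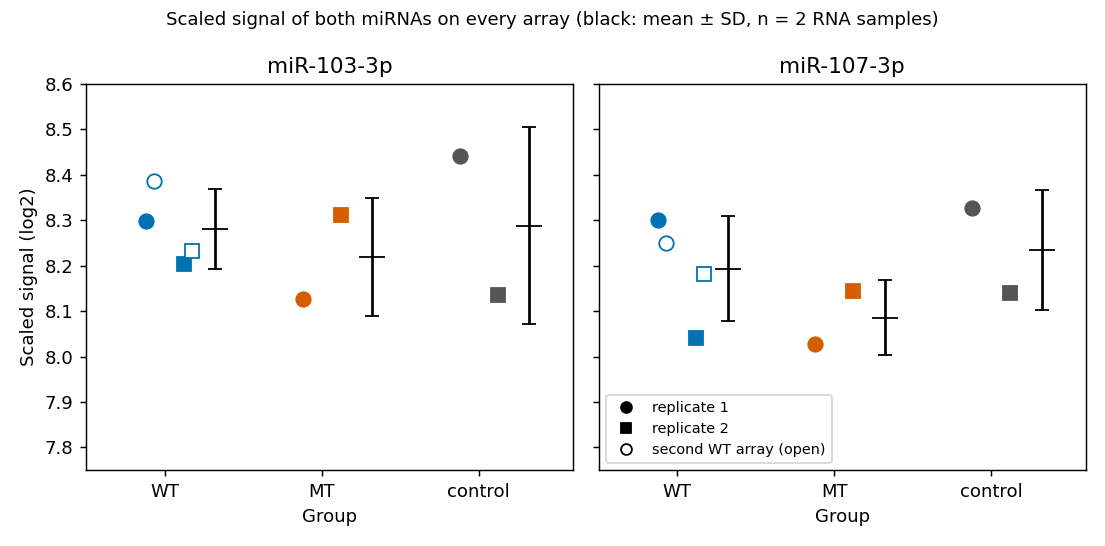
Scaled signal (log2) of miR-103-3p (left) and miR-107-3p (right) on every array by group, with replicate 1 as circles, replicate 2 as squares, second arrays of the WT samples as open symbols, and the mean ± SD over the 2 RNA samples in black. The groups overlap for both miRNAs, with control replicate 1 highest and the MT array of replicate 1 lowest on both sides.

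The error had 2 sources that could be measured. Between arrays of the same RNA, the 2 arrays of WT replicate 1 differed by 0.09 for miR-103 (log2) and those of WT replicate 2 by 0.03. For miR-107 the second array minus the first was -0.05 and 0.14. Between RNA samples of one group, replicate 1 minus replicate 2 for miR-103 was 0.12 for WT, -0.18 for MT and 0.31 for control cells. For miR-107 it was 0.16, -0.12 and 0.19. The widest of these gaps, a 1.24-fold difference for miR-103 between the control samples, was larger than any difference between group means. Pooled over groups the SD between replicates was 0.15 for miR-103 and 0.11 for miR-107, and the median over all miRNAs tested was 0.18.

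The first comparison asked whether wild type IhhN moved the pair. miR-103 in the WT group was 0.995 times its control level (log2 difference -0.01 ± 0.17 SE) and miR-107 was 0.972 times its control level (-0.04 ± 0.16 SE). The 95% interval ran from 0.749-fold to 1.32-fold for miR-103 and from 0.75-fold to 1.26-fold for miR-107. Neither passed in limma, with Benjamini-Hochberg adjustment over 142 mouse miRNAs (adjusted p = 0.98 and 0.88). These 142 were all that at least 1 group showed on each of its arrays. In the same comparison 0% of the 142 passed the adjusted threshold of 0.05, and 28.2% had an unadjusted p under 0.05 (17.6% higher and 10.6% lower with WT), against 0 of 2 for the pair. In 64.8% of the 142 the WT and control samples did not overlap (39.4% higher and 25.4% lower), against 0 of 2 for the pair. The count behind the 28.2%, 40 of 142, was 4 without WT replicate 1, 26 without control replicate 2, 4 with slide side in the model and 3 with scaling over all mouse probes. For this comparison the fit with slide side equals the one without WT replicate 1, so they are not separate checks. Counted from the smallest p, miR-103 ranked 140 and miR-107 ranked 129 of 142.

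For the E95K protein the question was the same. miR-103 in the MT group was 0.954 times its control level (-0.07 ± 0.17 SE, adjusted p = 0.77) and miR-107 was 0.902 times its control level (-0.15 ± 0.16 SE, adjusted p = 0.51), in limma's test. The intervals ran from 0.718-fold to 1.27-fold for miR-103 and from 0.696-fold to 1.17-fold for miR-107. In this comparison 0% of the 142 passed the adjusted threshold, 39.4% had an unadjusted p under 0.05 (26.8% higher and 12.7% lower with MT), and in 67.6% the samples of the groups did not overlap (40.8% higher and 26.8% lower). The pair had 0 of 2 by each of these criteria. The count behind the 39.4%, 56 of 142, was 22 without MT replicate 1, 34 without control replicate 2, 26 with scaling over all mouse probes and 0 with a term for the side of the slide. The side term can be estimated from the WT samples alone, since all MT arrays lay left and all control arrays right. With it the SE of miR-103 was 0.31 against 0.17, so the count of 0 does not tell whether side mattered. Without scaling between arrays, an alternative chosen after the data were seen, miR-107 was lower in the MT group by a log2 difference of -0.81 (limma adjusted p = 0.027) and miR-103 by -0.73 (adjusted p = 0.051), while the median of all 142 stood at -0.50. With the 75th percentile taken over all mouse probes, the differences were -0.86 for miR-107 and -0.78 for miR-103 (limma adjusted p = 0.28 and 0.35), at a median of -0.51.

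Between the proteins, miR-103 in the WT group was 1.04 times its level in the MT group (0.06 ± 0.17 SE) and miR-107 was 1.08 times (0.11 ± 0.16 SE), both with a limma adjusted p of 0.99. The intervals ran from 0.786-fold to 1.39-fold and from 0.831-fold to 1.40-fold. Here 0% of the 142 had an adjusted p under 0.05 and 0% an unadjusted one, and in 26.1% the samples did not overlap (8.45% higher and 17.6% lower with WT), against 0 of 2 for the pair. A p that misses the threshold does not show equal levels. What the intervals state is that, under the scaling and fit used, a change of the pair beyond 1.44-fold in either direction lay outside them in all 3 comparisons. limma draws the spread behind them partly from the other miRNAs tested. With slide side in the model the MT versus control differences were -0.19 ± 0.31 SE for miR-103 and -0.31 ± 0.26 SE for miR-107. The bound does not cover that fit. The comparisons of both proteins with control use the same control samples. Fewer cells making an miRNA and less of it per cell cannot be told apart in such bulk RNA.

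**Figure D3:**
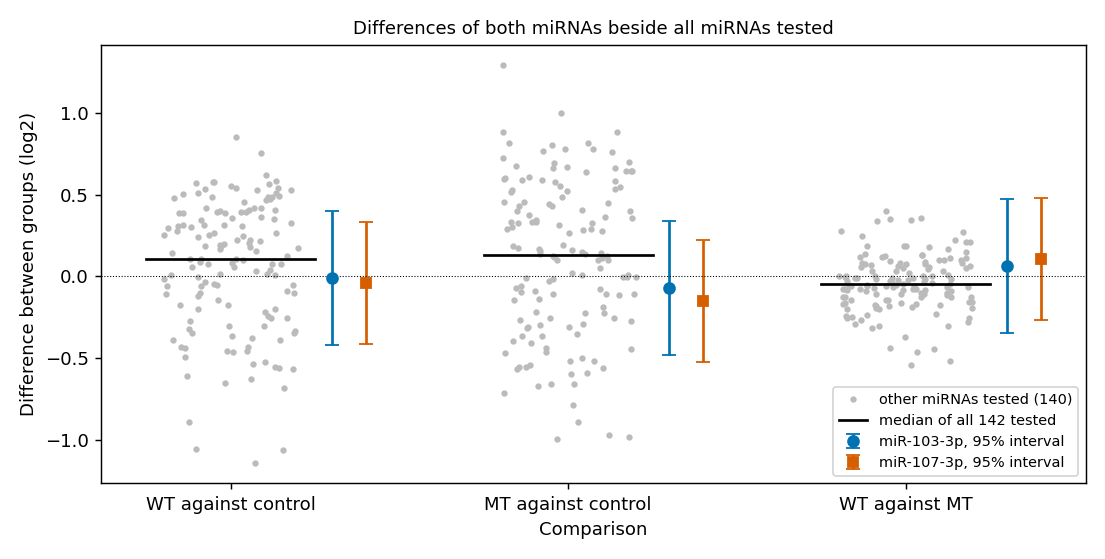
Difference between group means (log2) in the 3 comparisons for miR-103-3p (circles) and miR-107-3p (squares) with 95% intervals, beside the 140 other miRNAs tested (grey points) and the median of all 142 (black lines). All 6 intervals of the pair include 0, and the pair lies below the median against control and above it for WT versus MT.

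The array's own centre moved too, so the pair was set against it. The median difference over the 142 miRNAs was 0.11 for WT versus control, 0.13 for MT versus control and -0.04 for WT versus MT. Relative to these medians miR-103 stood at -0.11, -0.20 and 0.10, and miR-107 at -0.15, -0.28 and 0.15. Counted from the lowest difference, miR-103 ranked 54 and miR-107 ranked 51 of 142 for WT versus control, and 53 and 42 for MT versus control. These values depended on single samples and on the scaling. For miR-103 the value relative to the median ran from -0.23 (without control replicate 2) to 0.00029 (without control replicate 1) for WT versus control, and from -0.35 (without MT replicate 2) to 0.0083 (quantile normalization) for MT versus control, where it was -0.044 without MT replicate 1 and -0.047 without control replicate 1. For miR-107, with detection filtered, it ran from -0.26 (side of the slide) to -0.082 (without WT replicate 2) for WT versus control. For MT versus control it ran from -0.45 (side of the slide) to -0.088 (quantile normalization). With no filter on detection the value of miR-107 for WT versus control was -0.041, the difference itself. The 449 of 611 miRNAs detected on no array set the median there.

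**Figure D4:**
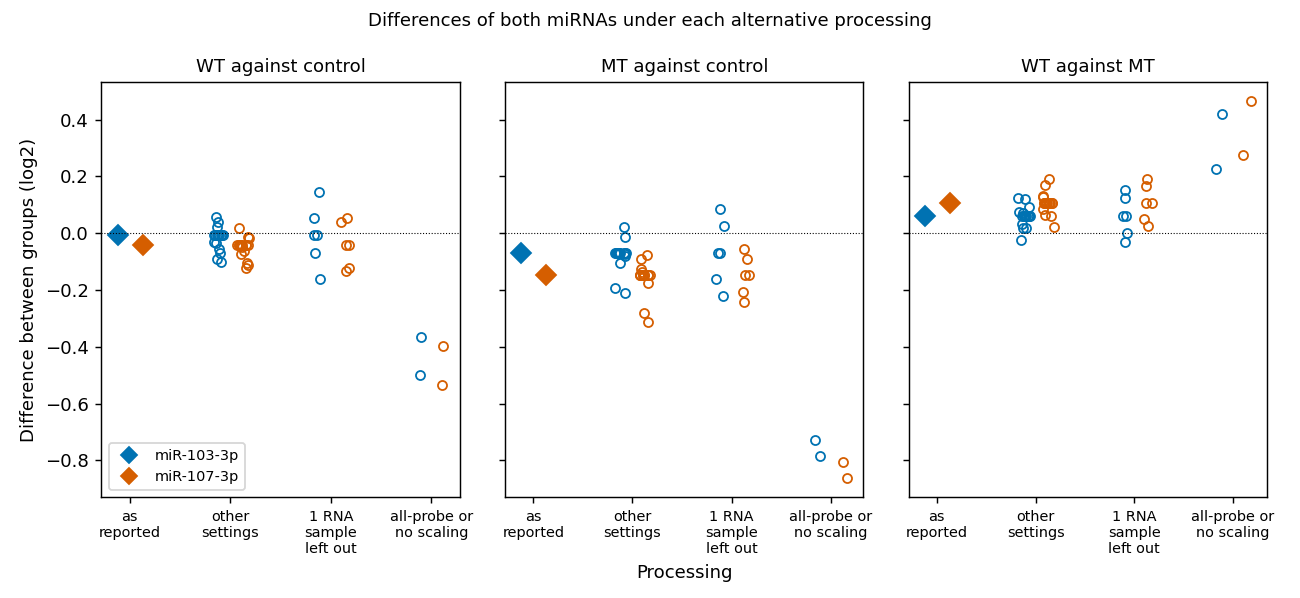
Difference between group means (log2) of miR-103-3p and miR-107-3p in each of the 3 comparisons, as reported (diamonds) and under each alternative processing (open circles), grouped into other settings, leaving out 1 RNA sample, and scaling over all probes or no scaling. Most alternatives lie near 0, and the 2 scalings set by the whole array or by none lie lower against control, down to -0.86 for miR-107, and higher for WT versus MT, up to 0.46 for miR-107.

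The dimmer probe of each miRNA gave a second reading of the same RNA. For miR-103 it gave differences of -0.10 for WT versus control, -0.08 for MT versus control and -0.02 for WT versus MT, where the brighter probe gave -0.01, -0.07 and 0.06. For miR-107 it gave -0.10, -0.12 and 0.02, where the brighter probe gave -0.04, -0.15 and 0.11. No probe separated the samples of any pair of groups. The sign of WT versus MT for miR-103 thus depended on the probe.

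Whether the members moved apart was read within each RNA sample, where the scaling of an array cancels. The log2 signal of miR-107 minus that of miR-103 was -0.07 and -0.11 in WT replicates 1 and 2, -0.10 and -0.17 in MT replicates 1 and 2, and -0.11 and 0.01 in control replicates 1 and 2. It ranged over 0.17, while the signals themselves ranged over 0.31 for miR-103 and 0.30 for miR-107 across the same samples. How well the probes separate the pair was not tested, so the narrower range does not show that the miRNAs vary together. Between groups the mean of miR-107 minus miR-103 differed by -0.03 for WT versus control, -0.08 for MT versus control and 0.05 for WT versus MT. Arrays of the same RNA moved it by more than that. From the first to the second array, miR-103 changed by 0.09 and miR-107 by -0.05 in WT replicate 1. In WT replicate 2 they changed by 0.03 and 0.14. The MT and control samples had 1 array each, so this error is not known for them. The exact two-sided permutation test gave p = 1, 0.667 and 0.667, where 2 samples against 2 cannot go below 0.333. With this number of samples the test could not have passed a threshold of 0.05, so it does not show whether the pair diverged.

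The pair belongs to a wider group of miRNAs whose 5′ ends overlap in sequence while their seeds are shifted by 1 base, called the miR-15 group here, many of whose members restrain the cell cycle. The sequences are shown to set the shift beside the values. Capitals mark the run shared with the first 9 bases of miR-103-3p, which starts at base 1 of the pair and at base 2 of the others.
miR-15a-5p: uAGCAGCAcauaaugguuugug
miR-15b-5p: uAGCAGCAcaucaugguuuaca
miR-16-5p: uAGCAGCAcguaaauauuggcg
miR-322-5p: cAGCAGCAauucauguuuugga
miR-503-5p: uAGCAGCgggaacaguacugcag
The run is 7 bases long in the first 4 and 6 bases long in miR-503-5p. The seed at bases 2 to 8 is AGCAGCA in the first 4 and AGCAGCG in miR-503-5p, against GCAGCAU in the pair. miR-195-5p and miR-497-5p complete the list.

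Of 12 arms of the listed miRNAs on the array, beside the pair, 6 were detected on all 8 arrays and 7 were tested. The 6 include miR-322-3p, the passenger arm of miR-322, whose 5′ end was not compared with that of the pair. It stood at 0.04 for WT versus control, -0.32 for MT versus control and 0.35 for WT versus MT. Over the 6, the median difference was -0.46 for WT versus control (2 higher, 4 lower), -0.55 for MT versus control (1 higher, 5 lower) and 0.11 for WT versus MT (5 higher, 1 lower). The medians of all 142 were 0.11, 0.13 and -0.04 in the same order. Those of the 103 miRNAs detected on all 8 arrays were 0.17, 0.14 and -0.03. None of the 6 passed the adjusted threshold in any comparison. At an unadjusted p under 0.05, 1 was lower for WT versus control and 2 for MT versus control, beside 10.6% and 12.7% of all miRNAs tested that were lower by this criterion. These shares include miRNAs not detected on every array. In a fit limited to the 103 that were, 33 and 49 had an unadjusted p under 0.05 in limma, in either direction. The other arm tested, miR-195-5p, entered through the control arrays alone and is left out of the counts of the 6 arms.

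The values of miR-15a-5p, made with miR-16 from one transcript, were 85.3 and 116 in WT replicates 1 and 2, 88.8 and 97.6 in MT replicates 1 and 2, and 130 and 145 in control replicates 1 and 2. All 4 samples given protein lay below both control samples, with log2 differences of -0.46 for WT and -0.56 for MT (limma adjusted p = 0.17 and 0.089). miR-16-5p, which lowers cyclin D1 and BCL2, read 392 and 433 for WT, 322 and 438 for MT and 603 and 528 for control cells. Its samples did not overlap with control either, at -0.45 for WT and -0.59 for MT (limma adjusted p = 0.17 and 0.088). miR-15b-5p, from a second locus shared with miR-16, read 617 and 497, 594 and 558, and 483 and 372. It lay above both control samples in all 4 samples, at 0.39 for WT and 0.44 for MT (limma adjusted p = 0.21 and 0.13). Samples that did not overlap with control were the common case on this array, at 64.8% of all miRNAs tested for WT and 67.6% for MT.

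miR-322-5p and miR-503-5p, neighbours on the X chromosome, varied widely between replicates. miR-322-5p read 397 and 735 in WT replicates 1 and 2, 467 and 489 in MT replicates 1 and 2, and 642 and 1062 in control replicates 1 and 2, at -0.61 for WT and -0.79 for MT versus control (limma adjusted p = 0.24 and 0.13). miR-503-5p read 44.4 and 84.1, 93.7 and 39.6, and 55.9 and 141, with overlapping groups (-0.54 for each protein). The passenger arm miR-322-3p stood at 0.04 for WT and -0.32 for MT. miR-195-5p was well above background on both control arrays and on 0 of the 6 WT and MT arrays, so it had only a bound there. It was too close to the lowest measurable signal for a fold to be given. miR-497-5p was detected on 1 array and not tested.

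**Figure D5:**
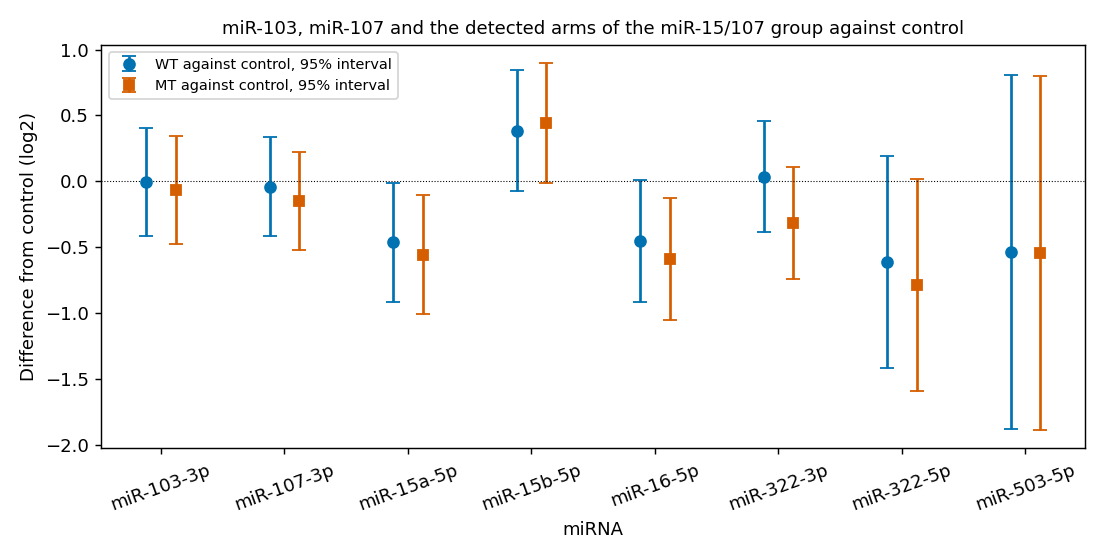
Difference from control (log2) with 95% intervals for miR-103-3p, miR-107-3p and the 6 arms of the miR-15 group detected on all 8 arrays, for WT (circles) and MT (squares). The 6 include the passenger arm miR-322-3p. The pair lies between -0.15 and -0.01, miR-15a-5p and miR-16-5p lie between -0.45 and -0.59, miR-15b-5p at 0.39 and 0.44, and miR-503-5p has the widest intervals.

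Other miRNAs with roles in fat cells and metabolism were followed by 3 lists. Of miRNAs reported to promote the formation of fat cells, 13 arms were tested and 0 passed the adjusted threshold in any comparison, with medians of 0.01 for WT versus control, -0.11 for MT versus control and -0.02 for WT versus MT. At an unadjusted p under 0.05, 2 were higher and 3 lower in each protein group against control, beside 28.2% of all miRNAs tested by this criterion for WT and 39.4% for MT. The smallest p belonged to miR-26b-5p (-0.68 for WT, -0.66 for MT, limma adjusted p = 0.14 and 0.066) and miR-92a-3p of the miR-17 to miR-92 cluster (0.47 and 0.53, adjusted p = 0.14 and 0.061). For WT versus MT they belonged to miR-30c-5p (0.27) and miR-143-3p (-0.20), both with a limma adjusted p of 0.99.

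Of miRNAs reported to limit fat cell formation, 18 arms were tested, 16 of them detected on all 8 arrays. Of the 18, 0 passed in any comparison, with medians of 0.18, 0.21 and -0.05 for WT versus control, MT versus control and WT versus MT. At an unadjusted p under 0.05, 3 were higher and 0 lower in the WT group, and 5 were higher and 2 lower in the MT group. Of all miRNAs tested, 17.6% were higher and 10.6% lower for WT, and 26.8% and 12.7% for MT. The 3 were let-7a-5p, let-7b-5p and let-7c-5p, and the 5 were these with let-7d-5p and miR-224-5p, so the higher counts are mostly of 1 family. The 2 lower were miR-31-3p and miR-130a-3p. let-7b-5p (0.53 for WT, 0.67 for MT) and let-7c-5p (0.50 and 0.61), members of the let-7 family that restrains growth, had the smallest p against control, with limma adjusted p of 0.14 for both in the WT group and 0.061 for both in the MT group. For WT versus MT, miR-155-5p, detected on 5 of the 8 arrays, stood at -0.24 and miR-224-5p at -0.37 (limma adjusted p = 0.99). Of miRNAs of glucose and lipid metabolism, 7 arms were tested, 6 of them detected on all 8 arrays. Of the 7, 0 passed, and the medians were 0.12, -0.00 and -0.02. miR-29b-3p, which targets collagens and is raised in insulin resistance, had the smallest p against control (-1.06 for WT, -0.89 for MT, limma adjusted p = 0.14 and 0.061), before miR-320-3p (0.42 and 0.45, adjusted p = 0.14 and 0.089). For WT versus MT the smallest p were those of miR-29a-3p (0.13) and miR-29b-3p (-0.17).

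The miRNAs whose pattern was most like that of the pair were ranked by Pearson's r with the mean of miR-103 and miR-107 over the 6 RNA samples, among 140 miRNAs, as a description. These samples share the scaling and the slide, and r was over 0.9 for 2 of the 140. miR-23a-3p had an r of 0.94, miR-24-3p of 0.92, miR-30a-5p of 0.88, miR-720 of 0.88 and miR-23b-3p of 0.87. miR-103 and miR-107 had an r of 0.89 with each other. Since separation of the pair by the probes was not tested, that last r does not show that their levels vary together. miR-23a and miR-24 are made from one transcript, and miR-720 has since been annotated as a fragment of a transfer RNA. miR-23a-3p read 3063 and 2881 in WT replicates 1 and 2, 2753 and 3125 in MT replicates 1 and 2, and 3481 and 2748 in control replicates 1 and 2. As for the pair, control replicate 1 was its highest sample, while its lowest was control replicate 2. Its group differences were also small, at -0.06 for WT and -0.08 for MT versus control, and those of miR-24-3p were -0.05 and -0.09, those of miR-30a-5p 0.02 and -0.10, and those of miR-23b-3p 0.06 and 0.01. miR-720 differed from them with -0.46 for MT versus control.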

How the data were processed

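miRNA arrays of 6 RNA samples of C3H10T1/2 cells were used, as 8 one-colour (Cy3) Agilent arrays on 1 slide. The authors deposited the intensity of each spot, background-subtracted and detrended by Feature Extraction (version 10.7.1.1 in the file headers and 9.1 in the submitters' processing notes), not normalized between arrays. A deposited table of the whole series held the same intensity to within 0.005. The other deposited values were marks of 0 or 1 for outlier, saturated and well above background spots. No normalization of the miRNA arrays by the authors was found in the labels, headers or methods. The 2 RNA samples of each group limit the precision, since the second arrays of the WT samples are technical repeats.

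Outlier and control spots were left out and spots of a probe averaged. A probe was detected where over 0.5 of its spots were well above background. Arrays were divided by the 75th percentile of the 174 mouse probes detected on all arrays and multiplied by the geometric mean of these percentiles. A floor of 4.08 (log2), the median over arrays of the lowest detected signal, was set before log2 was taken. The brightest probe stood for each miRNA, and the 2 arrays of a WT sample were averaged. The 3 groups were fitted with limma 3.58.1 in R 4.3.3 (lmFit, eBayes, Benjamini-Hochberg over 142 miRNAs, threshold 0.05), which leaves 3 residual degrees of freedom. The fit was also run on simulated data with independent noise and planted changes larger than those of the pair. That simulation had no effects of array, slide row or side, so it does not show how the fit does with them. Figures used matplotlib 3.10.9.

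The members, lists and alternatives were chosen with earlier results of these data known. The named miRNAs were the pair, the tested arms of the miR-15 group, the 2 smallest p of each other list in each comparison and the 5 miRNAs most like the pair. An entry of a list took all its arms on the array. Alternatives covered scaling, signal column, background correction, floor, filter, probes, outlier spots, technical arrays, replicate block, side of the slide, samples in the fit, intensity trend and leaving out each sample.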

Additional observations from a re-analysis of the deposited data

How the results depend on the processing

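Of 150 values of miR-103 and miR-107 recomputed under the settings listed with the methods, 0 passed limma's adjusted threshold. Many of these values repeat the reported difference and are not separate checks. A change of floor, filter, intensity trend or replicate block, or the brighter probe alone, leaves the difference as it was. Without scaling between arrays, a setting added later, miR-107 for MT versus control passed at -0.81. The difference of miR-103 for WT versus control changed sign under quantile normalization (0.039), normexp background correction (0.055) and the second technical array alone (0.022), and that for MT versus control under quantile normalization (0.021). For miR-107 that for WT versus control was 0.017 under normexp, and for miR-103 that for WT versus MT was -0.023 at the dimmer probe. With 1 RNA sample left out, the lone sample being assumed to vary like the other groups, WT versus control ranged from -0.16 to 0.15 for miR-103 and from -0.13 to 0.052 for miR-107, lowest without control replicate 2 and highest without control replicate 1. MT versus control ranged from -0.22 to 0.085 and from -0.24 to -0.06 with the same samples left out, and WT versus MT from -0.030 (without MT replicate 1) to 0.15 (without MT replicate 2) for miR-103 and from 0.026 to 0.19 for miR-107. The changes of sign are of values that passed no threshold, and their cause was not tested.

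The replicate block kept every difference, since each group holds both numbers, and gave limma adjusted p of 0.98 and 0.88 for WT versus control, 0.78 and 0.52 for MT versus control and 0.97 for WT versus MT (miR-103 and miR-107). It called 0 miRNAs in each comparison. The numbers were not taken as pairs because the methods describe no replicate block. Deviations of same-numbered samples had correlations of 0.022 (WT with MT), 0.39 (WT with control) and -0.46 (MT with control). With 2 samples a group these do not decide whether the numbers are pairs. A term for the left or right side gave -0.19 for miR-103 and -0.31 for miR-107 in MT versus control (limma adjusted p = 0.95). The correction for side within these values rests on the WT samples alone.

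The number of the 142 miRNAs past the adjusted threshold, 0 in each comparison, was 22 for WT versus control and 40 for MT versus control under normexp, 3 and 3 under the total gene signal (166 tested), 1 and 1 with 0.5 times the floor and 28 and 46 without scaling. At an unadjusted p under 0.05 it was 40, 56 and 0. The number past the adjusted threshold for MT versus control was 29 when the fit was limited to the 103 miRNAs seen on every array. This adjusted count was 11 when RNA sample was a random block over the 8 arrays. With 1 sample left out it was 0 for WT versus control, 0 to 18 for MT versus control and 0 to 1 for WT versus MT, both highest without MT replicate 2. miR-107 minus miR-103, over its 13 alternatives, lay between -0.09 and 0.03, -0.14 and -0.02, and 0.01 and 0.08 for WT versus control, MT versus control and WT versus MT. The share of miRNAs with a higher value was 61.3% for WT and 57.7% for MT versus control, against 29.6% and 10.6% with scaling over all mouse probes and 12% and 13.4% without scaling. Both members were well above background on every array.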
